A study of Triticum aestivum with 36 samples.

Results

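A set of 60 probe sets was examined whose signal held nearly level from 7 to 14 days after anthesis (DAA) and then fell by 28 DAA in developing seeds of 2 bread wheat varieties. The limits set on these changes did not use the signal of 2 further varieties. A probe set is a group of short probes on the Affymetrix Wheat Genome Array meant to read a transcript, and the array holds 61290 of them. Some probe sets can also bind related transcripts, so a reading may not stand for a single gene. Values of the varieties C306 and Sonalika were averaged at each stage. Among probe sets with a gene symbol in the array annotation, those that fell by at least 1 on the log2 scale from 14 to 28 DAA and changed by less than 1 between 7 and 14 DAA were kept, and the 60 with the largest late fall were taken. Of 1273 annotated probe sets, 42 were left out because they belong to the study's 10-fold list. That list holds probe sets that differed at least 10-fold between its good and poor quality varieties at some stage. It therefore draws on the signal of all the varieties. Another 64 were left out because they are named histones, tubulins, the large subunit of Rubisco, Em or Rab. Of the 1167 that remained, 87 met both limits. The 60 taken stood for 52 genes, of which 45 had 1 probe set and 7 had several. Only 5 of the 60 carried a gene name in the annotation. The other 55 had a locus symbol alone, and they are described here by that symbol without a function.

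The study compared varieties with good and poor quality for chapatti, an Indian flat bread. C306 and Lok1 are labelled good and Sonalika and WH291 poor, so each quality class is 2 varieties. Untreated plants were grown in the field in a single season in 3 biological replicates, and RNA came from pooled caryopses of the central part of spikes harvested at 7, 14 and 28 DAA. The 36 arrays made 12 groups of 3, 1 for each variety and stage. Values are log2 signals, with each probe set's median across the series set to 0, and so a value of 0 is the probe set's own middle level and levels of different probe sets cannot be set against each other. Each sample is a pool of whole seeds, so fewer cells of a type and less RNA per cell cannot be told apart.

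A wheat seed passes from cell division through a long filling phase to drying. During filling the starchy endosperm lays down starch and storage protein, and in the late phase embryo and aleurone build the proteins that protect them as water is lost. Starch is made from ADP-glucose, which ADP-glucose pyrophosphorylase produces and which starch synthases add to growing glucan chains. The granule-bound enzyme makes amylose, the linear fraction.

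Markers of the seed were read beside the chosen probe sets. Histone probe sets, a sign of dividing cells, and Em and Rab probe sets, which mark the drying embryo and aleurone, moved in opposite ways with stage in every variety. The mean over arrays of the median of 18 histone probe sets lay between 1.26 and 3.21 at 7 DAA and between -3.88 and -3.32 at 28 DAA over the varieties. The median of 8 Em and Rab probe sets lay between -7.99 and -6.80 at 7 DAA and between 1.67 and 2.39 at 28 DAA over the 4 varieties. The median of 17 gliadin and glutenin probe sets, which mark starchy endosperm, went from 0.74 at 14 DAA to 0.23 at 28 DAA in C306 and from 0.83 to 0.82 in Sonalika. It went from 1.15 to -2.32 in Lok1 and from 0.66 in the arrays labelled 14 DAA to -2.75 in WH291. From 7 DAA it went up in WH291, from -7.70 to -2.75. The Lok1 arrays at 28 DAA spread from -4.5 to 0.15. Storage protein signal was thus lower at 28 than at 14 DAA beside the chosen probe sets in Lok1 and, by the arrays labelled 14 DAA, in WH291, and it went the other way in WH291 from 7 DAA. Its part in the result was not tested.

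Some arrays stood apart. Over the 60 probe sets, the median of C306 14 DAA replicate 3 was -0.13, below 1.04 and 1.09 in the other arrays of that group. The labels of 2 groups were uncertain. Of 78 probe sets that separated Lok1 from WH291 by at least 3 on the log2 scale, the arrays labelled WH291 14 DAA lay nearer Lok1 in 71. Of 81 probe sets that separated Lok1 from C306 by as much, the arrays labelled Lok1 7 DAA lay nearer Lok1 in 41 and nearer C306 in 40. The late change in WH291 is therefore given first from 7 DAA and then from the arrays labelled 14 DAA. The change from 7 DAA also holds any change before 14 DAA and is not the same interval as in the other varieties. The BioB hybridization controls are bacterial transcripts added in a fixed amount to each labelled sample. Their medians went from 0.64 at 14 DAA to 1.18 at 28 DAA in C306 and from 0.46 to -3.02 in Sonalika. They went from 0.07 to -3.07 in Lok1 and, by the arrays labelled 14 DAA, from 0.39 to -3.18 in WH291. BioB thus fell over this step in all varieties but C306. The medians of BioC, BioD and Cre lay between -0.24 and 0.76 at 28 DAA. Those of the poly-A controls (dap, lys, phe and thr) changed too. From 14 to 28 DAA they went from 2.29 to -0.38 in Sonalika and from 1.38 to 2.41 in Lok1. They went from -1.18 to -1.21 in C306, and from -3.05 at 7 DAA to 1.798 in WH291. The part of these control differences in the late fall was not tested.

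The probe sets were chosen by the averaged C306 and Sonalika values, which are therefore a description only. In that average the late fall ran from 1.24 to 4.07 with a median of 1.84. The change from 7 to 14 DAA ran from -0.997 to 0.92 with a median of 0.03. At the edge of the choice the last probe sets taken were those of LOC543089, with a fall of 1.25, and LOC100037558, with 1.24. The first left out were a probe set of LOC543239, with 1.24, and another of LOC543089, with 1.22.

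**Figure D1:**
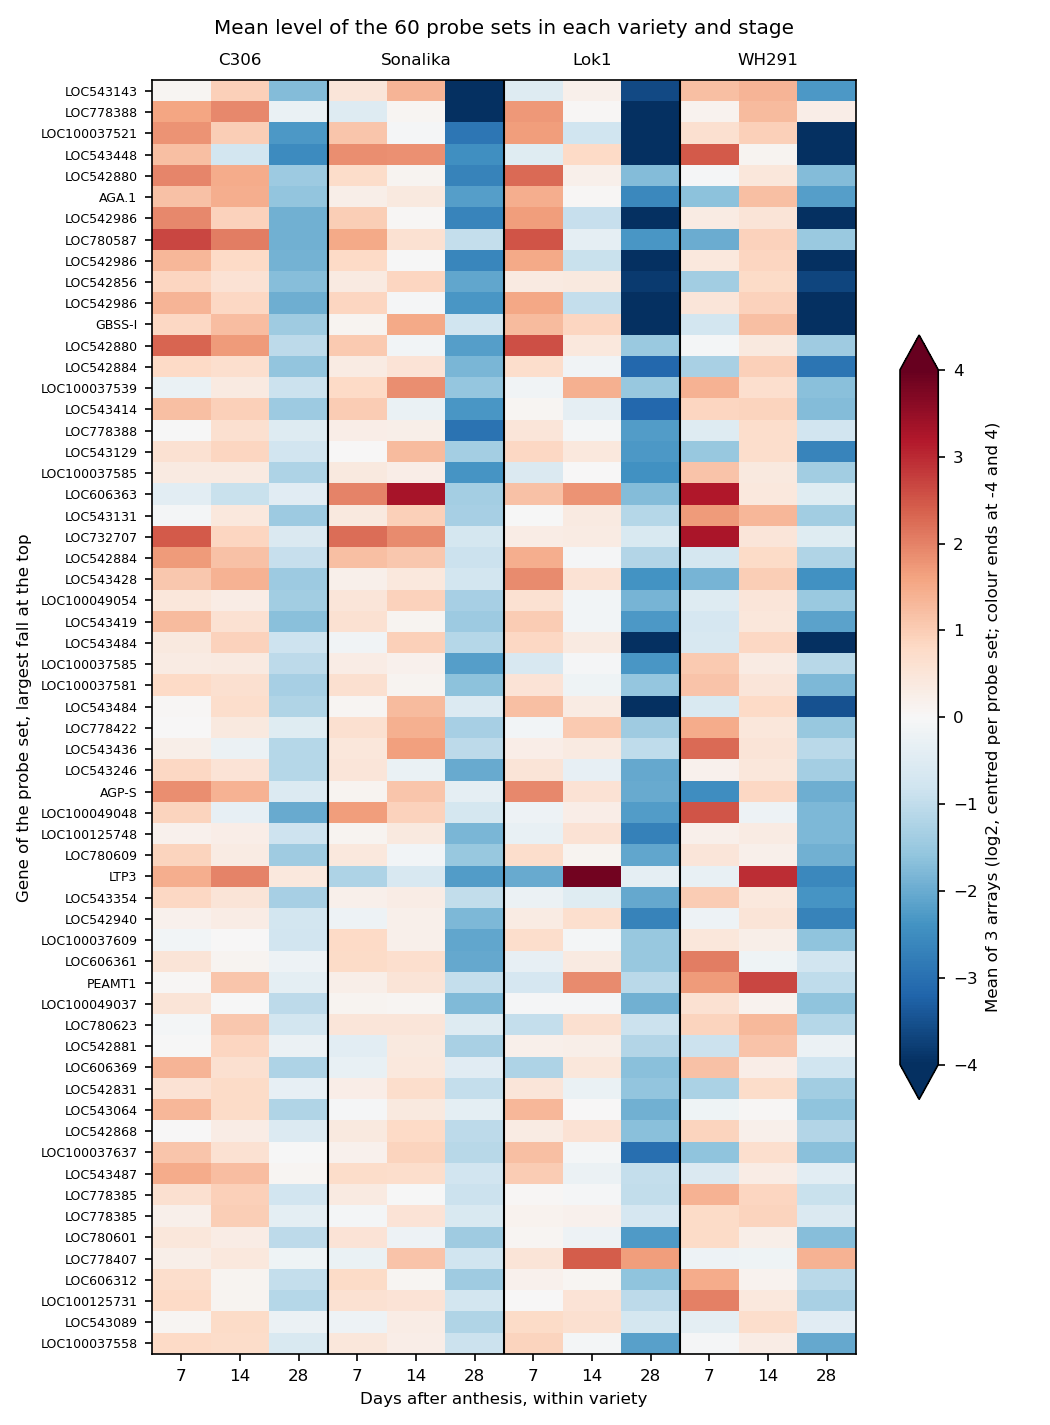
Mean log2 signal of the 60 probe sets (rows) in the 12 groups of variety and stage (columns, means of 3 arrays), centred on each probe set's median over all arrays. The groups at 28 DAA are low in all 4 varieties, with medians over the probe sets of -1.05 in C306, -1.36 in Sonalika, -2.02 in Lok1 and -1.61 in WH291.

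The median over the 60 probe sets in C306 was 0.79 at 7 DAA, 0.69 at 14 DAA and -1.05 at 28 DAA. In Sonalika it was 0.42, 0.43 and -1.36. A fall of at least 1 was found in both varieties for 47 of the 60, in C306 alone for 4 and in Sonalika alone for 9. The change from 14 to 28 DAA had a median of -1.70 in C306 (range -3.996 to 0.42) and of -2.02 in Sonalika. The 3 arrays at 28 DAA lay wholly below the 3 at 14 DAA for 50 of the 60 probe sets in C306, where 16% of all probe sets on the array did so, and for 58 of the 60 in Sonalika, where 17.7% did so. These shares restate the choice of the probe sets and carry no test. Over the 60, the fall in C306 and the fall in Sonalika had a Spearman rho of 0.06, a description over probe sets that come from the same arrays.

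The late fall was then tested in Lok1, none of whose arrays the choice had used. At 28 DAA, 53 of the 60 probe sets were lower than at 14 DAA and none was higher, against 12.9% of all tested probe sets that were lower in this comparison (limma, Benjamini-Hochberg adjusted p of 0.05 over 60130 probe sets). All 60 changes were below 0, with a median of -2.18 and a range of -5.81 to -0.72. The arrays at 28 DAA lay wholly below those at 14 DAA for 59 of the 60, against 18.5% of all probe sets. In WH291, 45 of the 60 were lower at 28 than at 7 DAA and none was higher, against 19.0% of all tested probe sets that were lower. The median change was -2.25, and 6 of the 60 lay above 0. From the arrays labelled WH291 14 DAA, 52 of the 60 were lower at 28 DAA and none was higher, against 12.4%, with a median of -2.13. The study gives an RNA integrity number, a score of how intact the RNA was, for each sample. In no variety was it higher at 28 than at 14 DAA in the replicate of the same number. The Lok1 samples at 28 DAA had the lowest numbers of any group. The part of RNA integrity in the late fall was not tested.

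Called lower in both Lok1 and WH291 from 7 DAA were 42 of the 60, while 11 were lower in Lok1 alone, 3 in WH291 alone and 4 in neither. When both groups of uncertain label were left out, 54 were lower in Lok1, and 46 were lower and 1 higher in WH291 from 7 DAA. The 15 probe sets not called lower in WH291 from 7 DAA mostly started low. In 14 of them the WH291 mean at 7 DAA was below 0, which was so for 12 of the 45 called lower. With WH291 taken from 7 DAA and the other varieties from 14 DAA, 53 of the 60 had a lower mean at 28 DAA in all 4 varieties. For 34 the mean was lower by at least 1 in all 4.

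**Figure D2:**
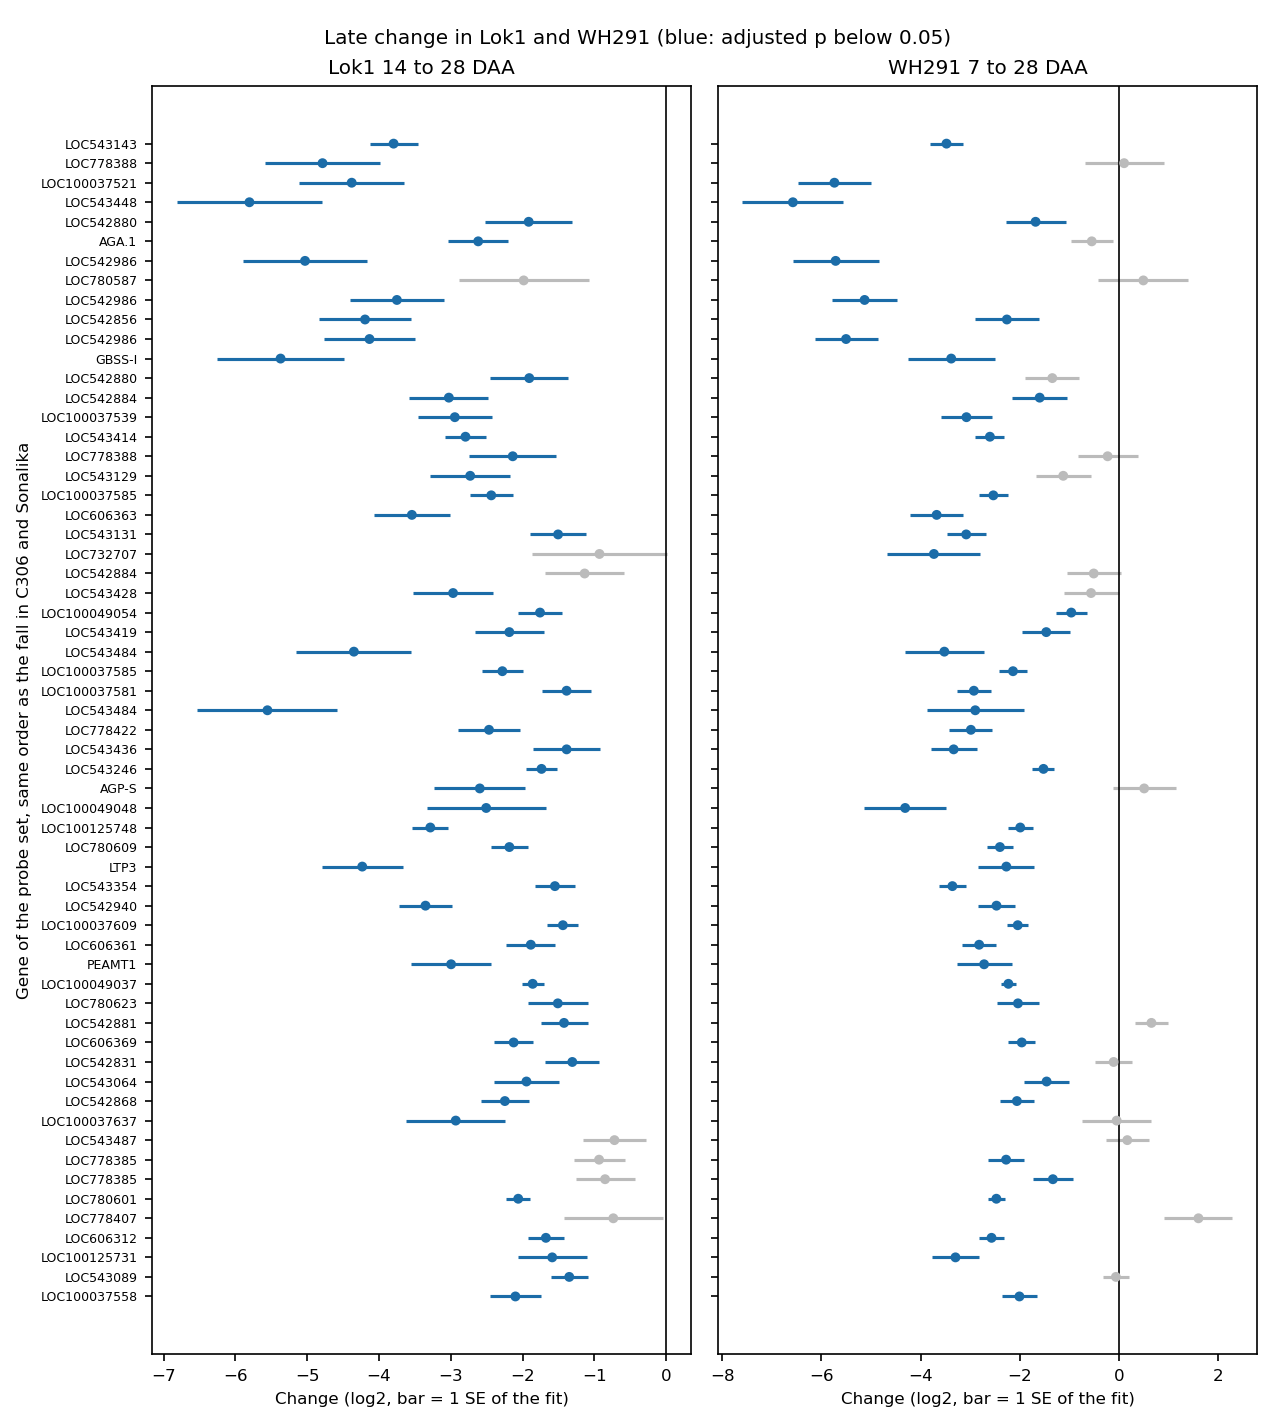
Change in log2 signal to 28 DAA for each of the 60 probe sets, from 14 DAA in Lok1 and from 7 DAA in WH291. Bars are 1 standard error of the fit over 12 groups of 3 arrays and blue marks a change past the test, 53 probe sets in Lok1 and 45 in WH291.

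The stage before the fall was less uniform outside the varieties that had set it. From 7 to 14 DAA the change was within 1 in size for 54 of the 60 in C306 and 49 in Sonalika, but for 36 in Lok1 and 32 in WH291. In Lok1 16 fell by at least 1 and 8 rose by at least 1, and in WH291 9 fell and 19 rose by that much. These counts rest in part on the arrays of uncertain label.

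Of the genes with a name, GBSS-I and AGP-S stood on the list of starch synthesis genes. GBSS-I (LOC543395), the granule-bound starch synthase also known as waxy, was lower at 28 than at 14 DAA in all 4 varieties. In Lok1 its log2 signal was 1.22, 0.90 and 0.43 in the 3 arrays at 14 DAA and -1.74, -5.59 and -6.25 at 28 DAA. In WH291 it was -1.07, -0.86 and -0.28 at 7 DAA, 2.48, 1.5 and -0.37 in the arrays labelled 14 DAA and -4.95, -2.14 and -5.28 at 28 DAA. All arrays at 28 DAA lay below all earlier arrays in both varieties, and the least low of them was replicate 1 in Lok1 and replicate 2 in WH291. The change was -5.37 in Lok1 (SE 0.88, limma adjusted p = 2.61e-05) and -3.38 in WH291 from 7 DAA (SE 0.88, adjusted p = 0.00265). In C306 the arrays read 2.27, 1.86 and -0.43 at 14 DAA and -1.50, -1.41 and -1.36 at 28 DAA. In Sonalika they read 1.23, 1.56 and 1.79 at 14 DAA and -0.79, -2.04 and 0.48 at 28 DAA. The stages were apart in both, and at 28 DAA Sonalika replicate 2 lay below Lok1 replicate 1.

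AGP-S (LOC543299), the small subunit of ADP-glucose pyrophosphorylase, started low in WH291. Its 7 DAA values were -0.85, -3.28 and -3.28 in WH291 and -0.53, -0.58 and 1.47 in Sonalika. They were 2.06, 2.22 and 1.26 in C306 and 1.62, 1.99 and 2.15 in the arrays labelled Lok1. The highest Sonalika array lay above the lowest C306 array, and otherwise the good varieties were above the poor ones. At 14 DAA the Lok1 arrays read 0.61, 1.00 and 0.13 and at 28 DAA -1.30, -2.21 and -2.54, with no overlap. In WH291 the 28 DAA arrays, at -2.03, -1.60 and -2.27, lay among those at 7 DAA. The change was -2.60 in Lok1 (SE 0.63, limma adjusted p = 0.0024), 0.50 in WH291 from 7 DAA (SE 0.63, adjusted p = 0.597) and -2.79 from the arrays labelled WH291 14 DAA (adjusted p = 0.0011).

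AGA.1 (LOC543278), a further ADP-glucose pyrophosphorylase gene that the list did not match, had a like course. Its arrays at 28 DAA lay close together, at -2.53, -2.66 and -2.53 for Lok1 and at -2.04, -2.11 and -2.42 for WH291. They read 0.07, 0.48 and -0.42 in Lok1 at 14 DAA and -0.92, -1.88 and -2.11 in WH291 at 7 DAA, so that the stages were apart in Lok1 and overlapped in WH291. The change was -2.62 in Lok1 (SE 0.42, limma adjusted p = 2.11e-05) and -0.55 in WH291 from 7 DAA (SE 0.42, adjusted p = 0.344). From the arrays labelled WH291 14 DAA, at 1.90, 1.16 and 0.53, it was -3.39 (adjusted p = 3.86e-07). For all 3 genes the arrays at 28 DAA in C306 stayed close to each other, between -1.66 and -1.47 for AGA.1 and between -0.65 and -0.48 for AGP-S.

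The list of starch synthesis genes matched 3 probe sets of the annotation, AGP-S, GBSS-I and a second probe set annotated as granule-bound starch synthase I (LOC100037526), which is not among the 60. AGP-S and GBSS-I were lower in Lok1 at 28 than at 14 DAA, and LOC100037526 was not called. In WH291 from 7 DAA, GBSS-I and LOC100037526 were lower and AGP-S was not called. From the arrays labelled WH291 14 DAA, GBSS-I and AGP-S were lower and LOC100037526 was higher, by 4.37 (limma adjusted p = 1.03e-05). Over all tested probe sets, 12.9% were lower and 14.1% higher in Lok1, 19.0% and 18% in WH291 from 7 DAA and 12.4% and 14.6% from the arrays labelled 14 DAA. The array places LOC100037526 in the same transcript cluster as LOC543484 and as probe sets the study names gliadins, so its reading is uncertain.

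LTP3 (LOC543095), a lipid transfer protein, had its peak at 14 DAA in Lok1 and in the arrays labelled WH291. In Lok1 it read -1.92, -2.15 and -1.95 in the arrays labelled 7 DAA, 3.48, 4.99 and 3.15 at 14 DAA and -0.50, -0.66 and 0.06 at 28 DAA. In WH291 it read -0.79, -0.34 and 0.19 at 7 DAA, 4.53, 2.48 and 1.83 in the arrays labelled 14 DAA and -2.34, -2.72 and -2.70 at 28 DAA. No arrays overlapped between stages in either variety. The change was -4.23 in Lok1 (SE 0.57, limma adjusted p = 1.36e-06) and -2.27 in WH291 from 7 DAA (SE 0.57, adjusted p = 0.00175), and the WH291 call was lost under quantile normalization (-1.95, adjusted p = 0.0893). LTP3 shares an array cluster with LOC100037539 and LOC778422, 2 more of the 60, and cross-hybridization between them cannot be told apart from a shared course.

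C306 held more LTP3 signal than Sonalika at every stage. The C306 arrays read 1.54, 0.74 and 2.06 at 7 DAA, 2.98, 2.06 and 0.88 at 14 DAA and 0.30, 0.25 and 0.76 at 28 DAA. Those of Sonalika read -0.98, -1.35 and -1.38, then -2.02, 0.18 and -0.06, and then -2.07, -2.31 and -2.33. Every C306 array lay above every Sonalika array of its stage. C306 was higher by 2.68 at 7 DAA (limma adjusted p = 0.0028), 2.61 at 14 DAA (adjusted p = 0.00398) and 2.67 at 28 DAA (adjusted p = 0.00255), each with an SE of 0.57. The difference at 7 DAA did not pass under quantile normalization (2.35, adjusted p = 0.141). At 28 DAA Lok1 was above WH291 in LTP3 by 2.22 (adjusted p = 0.0112), which was lost without Lok1 28 DAA replicate 3 (2.01, adjusted p = 0.0555) and under quantile normalization (1.90, adjusted p = 0.276).

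PEAMT1 (LOC543067) encodes phosphoethanolamine N-methyltransferase, which makes phosphocholine for membrane lipid and choline synthesis. In Lok1 it read 1.5, 2.12 and 2.09 at 14 DAA and -1.10, -1.39 and -0.79 at 28 DAA. In WH291 it read 0.20, 2.26 and 2.66 at 7 DAA and -0.80, -1.03 and -1.22 at 28 DAA. The stages did not overlap in either variety. The change was -3.0 in Lok1 (SE 0.55, limma adjusted p = 0.000119) and -2.72 in WH291 from 7 DAA (adjusted p = 0.000197). In C306 the stages overlapped, since replicate 1 at 14 DAA read -0.62 against 1.49 and 2.49 in the others, and the arrays at 28 DAA read -0.67, -0.03 and -0.45.

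**Figure D3:**
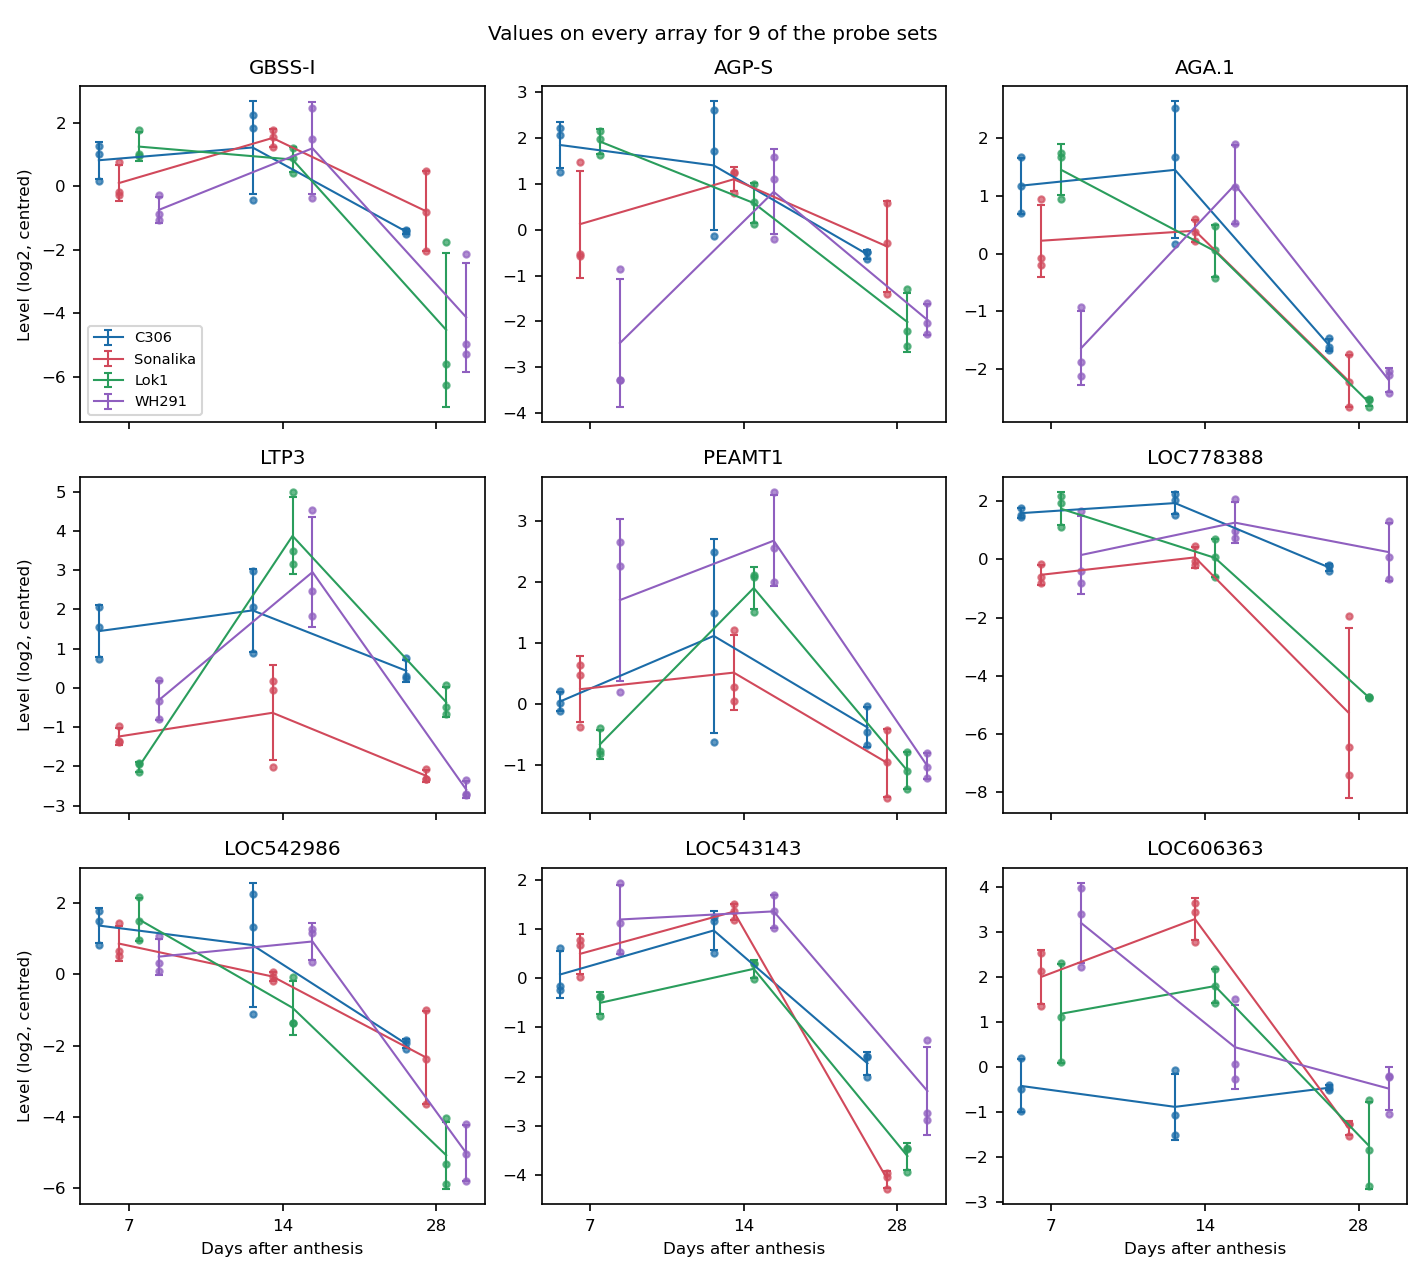
Log2 signal by array, centred on each probe set's median, of 9 probe sets in the 4 varieties at 7, 14 and 28 DAA. Points are arrays, lines join group means and bars are the SD of 3 arrays, and the GBSS-I panel shows 28 DAA values down to -6.25 in Lok1 beside -1.36 or lower in C306.

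The genes with several probe sets gave a check of 1 gene by different probes, though overlapping probes share sequence. LOC542986 had 3. Their changes lay between -5.03 and -3.75 in Lok1, between -5.71 and -5.13 in WH291 from 7 DAA, between -2.86 and -2.69 in C306 and between -2.70 and -2.27 in Sonalika. The one with the smallest fall in the C306 and Sonalika average read -1.37, -0.07 and -1.38 in Lok1 at 14 DAA and -4.04, -5.30 and -5.87 at 28 DAA, and 1.06, 0.32 and 0.10 in WH291 at 7 DAA and -5.05, -4.20 and -5.78 at 28 DAA. Neither variety overlapped between stages. All 3 probe sets passed in Lok1 (SE 0.87, 0.63 and 0.66, limma adjusted p of 5.03e-05, 1.05e-05 and 6.15e-05), and the last was lost under quantile normalization (-2.20, adjusted p = 0.0513). LOC100037521, which shares their array cluster, changed by -4.38 in Lok1 (SE 0.73, adjusted p = 3.15e-05) and by -5.74 in WH291 from 7 DAA (adjusted p = 1.95e-07).

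LOC543484 had 2 probe sets in the array cluster that also holds gliadin probe sets, so its reading is uncertain too. They changed by -4.35 and -5.55 in Lok1 and by -3.52 and -2.90 in WH291 from 7 DAA, and all 4 changes passed. The one that fell further in Lok1 read 0.41, 0.53 and 0.08 in Lok1 at 14 DAA and -1.32, -7.21 and -7.11 at 28 DAA. Replicate 1 at 28 DAA was far above the other arrays of its group and still below those at 14 DAA. In WH291 it read -0.05, -0.84 and -0.91 at 7 DAA and -3.70, -1.40 and -5.40 at 28 DAA, and its call was lost without WH291 7 DAA replicate 1 (-2.62, adjusted p = 0.068), 28 DAA replicate 1 (-2.80, adjusted p = 0.0509) or 28 DAA replicate 3 (-1.95, adjusted p = 0.164).

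LOC100037585 gave nearly equal readings from its 2 probe sets, which changed by -2.44 and -2.28 in Lok1 and by -2.54 and -2.14 in WH291 from 7 DAA. The one that changed less read -0.31, 0.15 and 0.03 in Lok1 at 14 DAA and -2.16, -2.75 and -2.07 at 28 DAA. In LOC542884 the probe sets differed. The one with the larger change fell by 3.03 in Lok1 (SE 0.55) and was called, and the other changed by -1.14 (SE 0.55, limma adjusted p = 0.131) and was not.

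LOC542880 had changes of -1.92 and -1.91 in Lok1, both called, of which the first was lost without Lok1 14 DAA replicate 1 (-1.75, limma adjusted p = 0.066), 28 DAA replicate 2 (-1.86, adjusted p = 0.0546) or 28 DAA replicate 3 (-1.85, adjusted p = 0.0538). Under quantile normalization both were lost (-1.49, adjusted p = 0.142, and -1.59, adjusted p = 0.0769). Its changes in WH291 from 7 DAA were -1.68 (adjusted p = 0.0287) and -1.35 (adjusted p = 0.0513). The first of these was lost without WH291 7 DAA replicate 1 (-1.47, adjusted p = 0.101), 28 DAA replicate 2 (-1.46, adjusted p = 0.109) or 28 DAA replicate 3 (-1.68, adjusted p = 0.0648). LOC778385 went the other way. Its probe sets changed by -0.93 and -0.85 in Lok1 without passing and by -2.28 and -1.34 in WH291 from 7 DAA, both called. The Lok1 change of -0.93 passed without Lok1 14 DAA replicate 1 (-1.18, adjusted p = 0.0278), and the WH291 change of -1.34 did not without WH291 7 DAA replicate 2 (-0.85, adjusted p = 0.125).

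The other 40 probe sets stood for 40 genes with a locus symbol alone. In Lok1 all 40 were lower at 28 than at 14 DAA, from -5.81 to -0.72 with a median of -2.02, and 36 passed the test. In WH291 from 7 DAA 36 lay below 0, with a median of -2.25, and 31 passed. The largest change in both varieties was that of LOC543448. It read 1.25, 0.98 and 0.13 in Lok1 at 14 DAA and -4.64, -5.25 and -5.17 at 28 DAA, and 0.49, 3.24 and 3.59 in WH291 at 7 DAA and -3.92, -3.63 and -4.85 at 28 DAA. The stages were far apart in both. The change was -5.81 in Lok1 (SE 1.01, limma adjusted p = 6.08e-05) and -6.57 in WH291 (SE 1.01, adjusted p = 4.64e-06).

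At the small end stood LOC543487, which changed by -0.72 in Lok1 (SE 0.44, limma adjusted p = 0.25) and by 0.16 in WH291 from 7 DAA. LOC778407 had the highest of the 6 changes above 0 in WH291 from 7 DAA. It read -0.28, -0.29 and -0.05 at 7 DAA and 2.13, 0.11 and 1.93 at 28 DAA, a difference of 1.60 (SE 0.69, adjusted p = 0.0697) that passed without WH291 28 DAA replicate 2 (2.24, adjusted p = 0.0181). In Lok1 it read 2.35, 2.94 and 1.95 at 14 DAA and 0.09, 1.17 and 3.78 at 28 DAA, where replicate 3 lay above all arrays at 14 DAA. The difference was -0.74 (adjusted p = 0.485), and without that replicate it was -1.78 (adjusted p = 0.0423).

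Varieties were then compared at a stage. The average of C306 and Sonalika does not fix their difference, but their arrays chose the probe sets. Of the 60, 9 fell by at least 1 in Sonalika alone and 4 in C306 alone. Counts for C306 against Sonalika are therefore a description and no independent test. At 28 DAA 13 of the 60 were higher in C306 than in Sonalika and none was lower, against 3.39% of all tested probe sets that were higher. The median difference over the 60 was 0.55. At 7 DAA 2 were higher and 2 lower, against 6.12% in either direction, and at 14 DAA 4 were higher and 2 lower, against 5.55%. In Lok1 9 were lower than in WH291 at 28 DAA and 1 was higher, LTP3, against 8.07% in either direction and 4.33% lower. The count of 10 fell to 4 without Lok1 28 DAA replicate 2, to 4 without Lok1 28 DAA replicate 3, to 3 without WH291 28 DAA replicate 2 and to 1 under quantile normalization. At 28 DAA the BioB medians were 1.18 in C306 and -3.02 in Sonalika, and -3.07 in Lok1 and -3.18 in WH291. Their part in these counts was not tested.

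**Figure D4:**
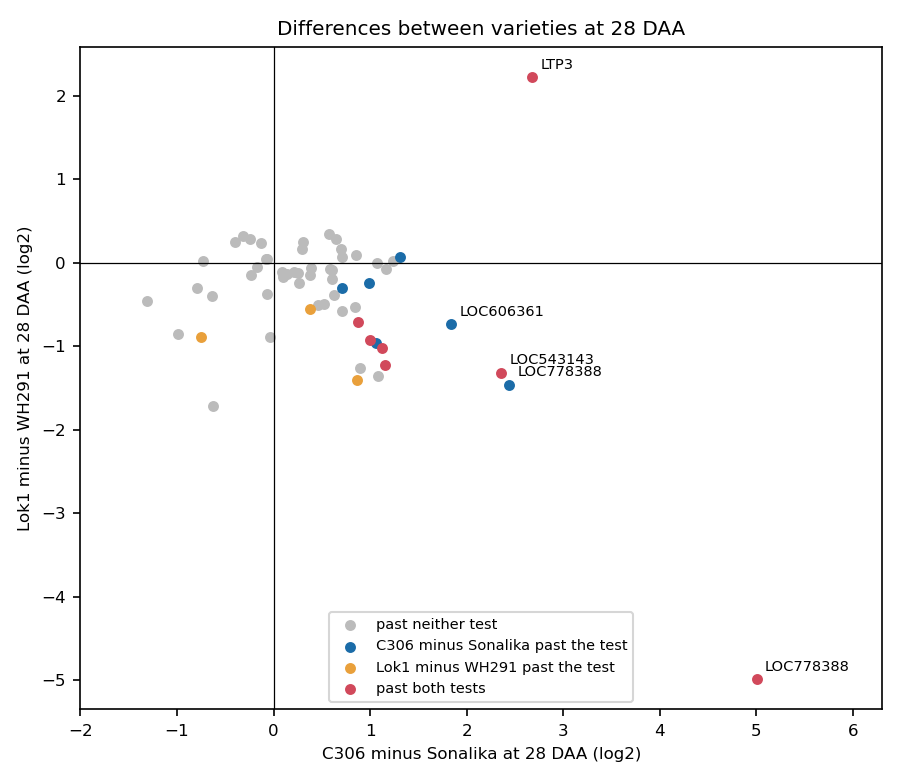
Difference in log2 signal at 28 DAA between varieties for the 60 probe sets, C306 minus Sonalika on 1 axis and Lok1 minus WH291 on the other. Of the 13 probe sets higher in C306, 6 were lower in Lok1 than in WH291, and LOC778388 lies at 5.0 and -4.99.

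The widest difference was that of LOC778388, which had a low signal in Sonalika and Lok1 at 28 DAA and not in C306 and WH291. Its probe set with the larger late fall read -0.19, -0.22 and -0.41 in C306 and -6.46, -7.42 and -1.94 in Sonalika. In Lok1 it read -4.71, -4.75 and -4.74, and in WH291 0.09, 1.33 and -0.67. The low and high varieties did not overlap, and Sonalika replicate 3 stood well above the other Sonalika arrays. C306 was higher than Sonalika by 5.0 (SE 0.79, limma adjusted p = 8.42e-05), and Lok1 was lower than WH291 by 4.99 on the log2 scale (difference -4.99, SE 0.79, adjusted p = 5.64e-05). The change from 14 to 28 DAA in Lok1 was -4.79 (SE 0.79, adjusted p = 3.11e-05), while that of WH291 from 7 DAA was 0.10 (adjusted p = 0.945).

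The second probe set of LOC778388 read -0.76, -0.47 and -0.34 in C306 at 28 DAA and -3.28, -5.21 and -0.38 in Sonalika. It read -2.38, -1.85 and -2.44 in Lok1 and -0.80, -0.01 and -1.49 in WH291. C306 and Sonalika overlapped through Sonalika replicate 3, and Lok1 lay wholly below WH291. C306 was higher than Sonalika by 2.44 (limma adjusted p = 0.0105), a call lost without Sonalika 28 DAA replicate 1 (adjusted p = 0.058) or replicate 2 (1.31, adjusted p = 0.111).

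Of the remaining probe sets, LOC543143 had the largest late fall in the average of C306 and Sonalika. Its arrays at 28 DAA read -1.58, -1.60 and -2.0 in C306, -4.27, -4.03 and -3.95 in Sonalika, -3.92, -3.44 and -3.46 in Lok1 and -2.74, -1.25 and -2.87 in WH291. At 14 DAA they read 0.51, 1.16 and 1.23 in C306, 1.18, 1.36 and 1.51 in Sonalika and 0.29, -0.02 and 0.30 in Lok1. The stages were far apart in each variety, and at 28 DAA C306 lay wholly above Sonalika. The change was -3.80 in Lok1 (SE 0.33, limma adjusted p = 1.67e-09) and -3.48 in WH291 from 7 DAA (adjusted p = 1.34e-09). C306 was higher than Sonalika at 28 DAA by 2.36 (SE 0.33, adjusted p = 1.56e-05). Lok1 differed from WH291 there by -1.32 (adjusted p = 0.011), which did not pass if Lok1 28 DAA replicate 1 (-1.16, adjusted p = 0.0591) or WH291 28 DAA replicate 2 (-0.80, adjusted p = 0.165) was left out, or under quantile normalization (-1.25, adjusted p = 0.0675).

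The late change in C306 and in Sonalika chose the probe sets, so the 2 are set side by side with no test. The gap was widest for LOC606363. It read -1.08, -0.07 and -1.52 in C306 at 14 DAA and -0.46, -0.52 and -0.41 at 28 DAA, while in Sonalika it read 2.76, 3.44 and 3.64 at 14 DAA and -1.54, -1.28 and -1.27 at 28 DAA. C306 overlapped between the stages, with a change of 0.42, and LOC606363 met the limit on the average through Sonalika, with a change of -4.65. LOC543143 changed by -2.69 in C306 and -5.43 in Sonalika, LOC543448 by -1.77 and -4.30, and the leading probe set of LOC778388 by -2.21 and -5.34. LOC780587 had the larger fall in C306, at -3.996 against -1.56 in Sonalika.

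Between the varieties at a stage, LOC606363 was lower in C306 than in Sonalika at 14 DAA (-4.17, limma adjusted p = 3.11e-06) and at 7 DAA (-2.42, adjusted p = 0.00388). LOC606361 read -0.19, -0.20 and -0.23 in C306 at 28 DAA and -2.13, -1.59 and -2.41 in Sonalika. LOC100037609 read -0.53, -0.93 and -0.80 in C306 at 28 DAA and -2.02, -1.96 and -2.21 in Sonalika. In both, all C306 arrays were above all Sonalika arrays. They were higher in C306 at 28 DAA by 1.84 (SE 0.34, adjusted p = 0.000638) and 1.31 (SE 0.21, adjusted p = 0.000132). From 14 to 28 DAA LOC606361 changed by -0.325 in C306 and -2.71 in Sonalika, and LOC100037609 by -0.787 and -2.273. Like LOC606363, both met the limit on the average through Sonalika. The choice itself could favour such gaps, so nothing is drawn from their p-values.

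**Figure D5:**
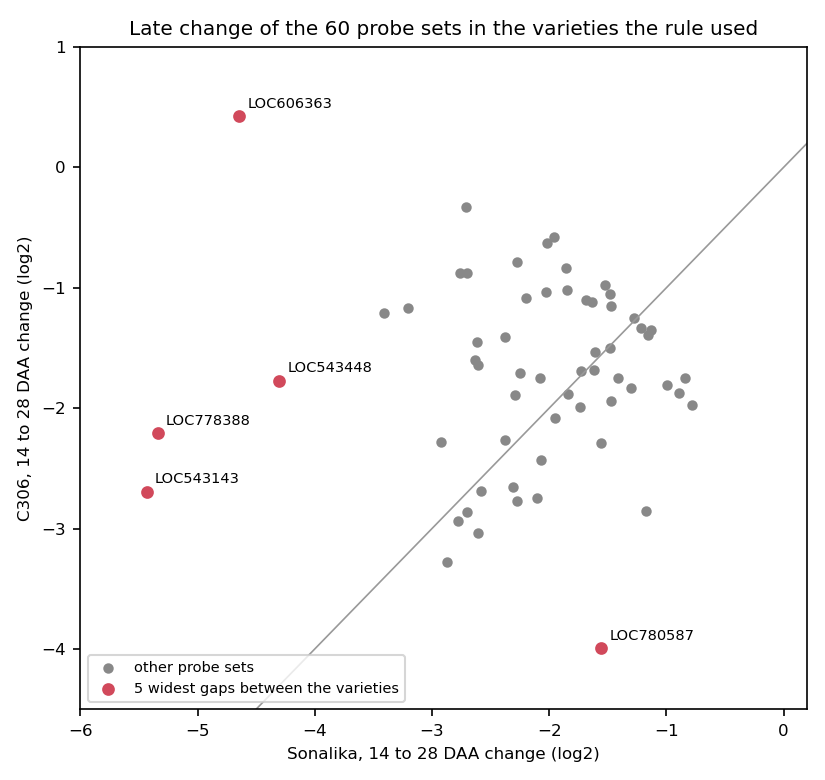
Change in log2 signal from 14 to 28 DAA of the 60 probe sets in Sonalika (horizontal) and C306 (vertical), the varieties that chose them, with a line where both are equal. Marked are the 5 widest gaps, and LOC606363 lies at a C306 change of 0.42.

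Good and poor quality varieties were compared with the model of the study, in which 6 arrays of 2 varieties form a group. The choice had left out the probe sets that differed at least 10-fold between these classes. The shares of all tested probe sets include them, so a low count among the 60 is in part set by the choice. No conclusion is drawn from it. The good varieties had higher signal at 7 DAA for 11 of the 60, against 6.58% of all tested probe sets, and lower signal for 7, against 6.31%. At 14 DAA none passed (limma), against 0.0233%, with 6 at an unadjusted p under 0.05. At 28 DAA none passed (limma), against 2.18%, with 2 at an unadjusted p under 0.05 and with 2 past the test when arrays were weighted by quality. Among the 60, no adjusted p was smaller than 0.583 at 14 DAA or 0.0836 at 28 DAA.

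The 2 genes of ADP-glucose synthesis were among those higher in good varieties at 7 DAA. The AGP-S arrays are given above. For AGA.1 they read 1.17, 1.67 and 0.70 in C306 and 0.945, 1.68 and 1.74 in the arrays labelled Lok1. They read -0.07, -0.20 and 0.94 in Sonalika and -0.92, -1.88 and -2.11 in WH291. In both genes Sonalika overlapped C306 and all WH291 arrays lay below those of the other varieties. AGP-S was higher by 3.06 (SE 0.60, limma adjusted p = 0.000788) and AGA.1 by 2.02 (SE 0.43, adjusted p = 0.00171). These and the other p-values of good against poor measure the spread of arrays and not that of varieties, of which each class has 2. LOC780587, LOC543428 and both probe sets of LOC542880 were higher by 2.84, 2.31, 1.98 and 1.78. The lowest in good varieties were LOC606363 (-2.22), LOC606361 (-1.32), LOC100037539 (-1.30), LOC780623 (-1.2) and LOC778422 (-1.10). AGP-S, AGA.1 and the LOC542880 probe set with the larger difference passed under every alternative, and each of the others named here was lost under at least 1. The count of 18 was 5, all higher, under quantile normalization, 10 with variety as a random block, 7 without both groups of uncertain label, 7 on leaving out WH291 7 DAA replicate 2 or replicate 3, 11 without Lok1 7 DAA replicate 2, and 29 without Sonalika 7 DAA replicate 3.

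A quality by stage interaction was found for 2 of the 60, against 3.8% of all tested probe sets. For AGP-S the difference between good and poor at 28 DAA less that at 7 DAA was -3.17 (limma moderated F, adjusted p = 0.0314), and for LOC543064 it was -1.97 (adjusted p = 0.0491). AGP-S did not pass without the doubtful arrays (-3.13, adjusted p = 0.118), under quantile normalization (-2.56, adjusted p = 0.0661) or without WH291 7 DAA replicate 2 (-2.75, adjusted p = 0.0787), and LOC543064 did not pass in most of the fits that left out 1 array. Without C306 7 DAA replicate 1 or replicate 2, Lok1 7 DAA replicate 2, or WH291 7 DAA replicate 2 or replicate 3 the count was 0. It rose to 9 on leaving out Sonalika 7 DAA replicate 3.

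The lists of other pathways had no probe set among the 60. Lists were matched on names, and 55 of the 60 have a locus symbol alone. They could hardly match, so this absence tells nothing of their pathways. Their counts stand against the shares of all tested probe sets given with the starch genes. In Lok1 from 14 to 28 DAA, 2 of 5 translation probe sets were lower and 1 higher, and 1 of 8 antioxidant probe sets was lower and 2 were higher. In WH291 from 7 DAA, 2 of the 3 photosynthesis probe sets were lower, as were both cell wall probe sets, while 5 of 8 antioxidant probe sets were higher and 1 lower, and 2 of 5 translation probe sets were lower and 2 higher. The list of signalling genes matched 3 probe sets by their letters, all of Rab15, and all 3 were higher. Lists of sucrose, glycolysis, proteolysis and amino acid genes matched no annotated probe set.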

How the data were processed

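Labelled RNA of developing seeds was hybridised to 36 arrays. The deposited values are log2 signals that the authors made by RMA and centred on each probe set's median over the arrays (largest remaining median 4.8e-07). Array number limits the precision. All 36 columns of the table were used as deposited. A probe set entered the fits if each of the 6 arrays in some quality and stage group lay at or above the 20th percentile of their array, which left 60130 of 61290, including all 60 chosen. limma 3.58.1 in R 4.3.3 fitted 12 variety and stage groups, or 6 quality and stage groups as in the study's methods, and p-values were adjusted over all probe sets (Benjamini-Hochberg, 0.05). Fits were tested on simulated data. Tables and plots used Python 3.11.15, pandas 2.3.3, numpy 2.4.6, scipy 1.17.1 and matplotlib 3.10.9. Genes were named from the array annotation and RefSeq, which listed 1272 of 1273 annotated probe sets. Members and lists were chosen with earlier results of these data known. Genes named in the text were those with a known role and a large late fall, those with several probe sets, up to 5 past each test in each direction and the extremes in Lok1 and WH291. Alternatives were quantile normalization, median centring, no filter, array weights, trended and robust variances, a replicate block, a random variety block, other limits of the choice and each array left out. Replicates were separate field replicates.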

Additional observations from a re-analysis of the deposited data

Results flagged for a closer look

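Single arrays lay far from the other 5 of their quality and stage group in 10 of 234 cases, where chance gives about 1 in 20. LOC778388, by its probe set with the larger late fall, read 1.66 in WH291 7 DAA replicate 1, with the nearest poor variety array at -0.16. LOC542880 read 1.29 and 1.82 with its 2 probe sets in C306 7 DAA replicate 3, with the nearest good variety arrays at 2.11 and 2.44. LOC543484, by its probe set with the larger fall in Lok1, read 0.045 in WH291 14 DAA replicate 3, with the nearest at 1.13. PEAMT1 read -0.62 in C306 14 DAA replicate 1, with the nearest at 1.49. LOC780623 read -1.15 in Lok1 28 DAA replicate 1, with the nearest at -0.82. LOC606369 read 1.01 in C306 14 DAA replicate 1, with the nearest at 0.53, and 0.67 in Sonalika 14 DAA replicate 1, with the nearest at 0.37. LOC543487 read -0.615 in Lok1 7 DAA replicate 2, with the nearest at 1.055. LOC778407 read 3.78 in Lok1 28 DAA replicate 3, with the nearest at 1.17.

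The difference between good and poor varieties passed the test of change with stage for AGP-S (limma adjusted p = 0.0314) and LOC543064 (adjusted p = 0.0491). Of all tested probe sets 3.8% passed. Both calls were lost under quantile normalization (adjusted p = 0.0661 and 0.0662) and without the doubtful arrays (adjusted p = 0.118 and 0.103).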

How the results depend on the processing

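The late fall kept its direction and its count of the 60 probe sets within 1.5 times under all settings tried: 43 to 55 in Lok1, 39 to 46 in WH291 from 7 DAA and 44 to 53 in WH291 from 14 DAA. Under quantile normalization the counts past the test were 43 in Lok1, 40 in WH291 from 7 DAA, 2 for C306 against Sonalika at 7 DAA and 11 at 14 DAA, 1 for Lok1 against WH291, 5 for good against poor at 7 DAA and 0 for the interaction. With array weights they were 14 and 32 for C306 against Sonalika at 7 and 14 DAA, 17 for their late changes (5 lower and 12 higher, where the values that chose the probe sets were tested and nothing is drawn from it) and 2 for good against poor at 28 DAA. Without the doubtful arrays, good against poor gave 7, 2 and 2 at 7, 14 and 28 DAA. With variety as a random block, good against poor at 7 DAA gave 10 and the interaction 6, and with no filter the interaction gave 1. Limits set on C306 alone kept 35 of the 60, and an early limit of 0.5 kept 30. Same-numbered samples did not deviate together (correlations from -0.546 to 0.173 over 21 pairs), and the labels give the numbers no shared origin. With the replicate block the counts were 54, 45 and 52 for the late falls, 4, 6 and 12 for C306 against Sonalika, 9 for Lok1 against WH291, 4 for the late changes, 18, 0 and 0 for good against poor and 2 for the interaction, and of the named results only that of LOC543246 in Lok1 against WH291 was lost (adjusted p = 0.0555). The causes were not tested.

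Leaving out 1 array at a time gave 48 to 55 in Lok1, 39 to 46 and 44 to 53 in WH291, 3 to 5, 2 to 7 and 10 to 14 for C306 against Sonalika at 7, 14 and 28 DAA, 4 to 7 for their late changes, 3 to 11 for Lok1 against WH291, 7 to 29, 0 to 0 and 0 to 1 for good against poor at the 3 stages and 0 to 9 for the interaction. C306 against Sonalika at 14 DAA fell to 3 without C306 14 DAA replicate 2, and to 2 if either replicate 2 or replicate 3 of Sonalika 14 DAA was left out. The late changes gave 7 without Sonalika 28 DAA replicate 3, and good against poor at 28 DAA gave 1 without Lok1 28 DAA replicate 1. Between 48 and 59 of the 60 were chosen again, 48 without C306 14 DAA replicate 3. The median late change of C306 and Sonalika ran from -2.06 to -1.67, from settings chosen after seeing the data. Of the named results 137 passed the test and 16 did not. Of the 137, 37 were lost on leaving out an array and 28 under quantile normalization, and none turned.

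Limits. Field replicates of 1 season and 2 varieties per quality class bound what good against poor can show. Most of the 60 have no gene name, several share an array cluster with other genes, and centred values carry no absolute level.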
